A study of Mus musculus with 12 samples.

Results

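The mitochondrial genome of the mouse is annotated in GENCODE M21 as 37 genes on chromosome M, and all 37 were found by Ensembl identifier among the 54532 genes counted in gastrocnemius, a calf muscle. They are 13 protein-coding genes, 2 ribosomal RNA (rRNA) genes and 22 transfer RNA (tRNA) genes. The animals were wild-type C57BL/6 mice aged 6 to 7 months, and the 12 libraries formed 4 groups of 3. Naive muscle served as the untreated control. Saline muscle had a saline injection, and injury muscle an injection of bupivacaine, which is a local anaesthetic that damages muscle fibres. Needling muscle received bupivacaine followed by acupuncture at 24 hours. When the tissue was collected is not stated. Nor do the labels state that each replicate is a separate animal, so every p-value here covers the spread among these samples alone, and that spread may be technical.

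Mitochondrial DNA is a small circle that is transcribed on both strands into long precursor RNAs. The tRNAs lie between many of the other genes and are cut out of the precursors, which releases the messenger and ribosomal RNAs. The coding genes specify core subunits of respiratory complexes I, III and IV and of the ATP synthase, and all other subunits, including the whole of complex II, are encoded in the nucleus. Skeletal muscle depends on this machinery for sustained contraction, and its mitochondrial transcripts are abundant. The nuclear genome also carries old insertions of mitochondrial DNA, some of them nearly identical to the original.

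Sequences of the annotated transcripts show bases that some of these genes share with neighbours or with nuclear copies. They were read from the GENCODE M21 transcripts on mm10. The first pair is mt-Tp (chrM:15356-15422, minus strand) and mt-Te (chrM:14071-14139, minus strand), the proline and glutamate tRNAs, shown because they were called in several comparisons. Capitals mark the anticodon.
mt-Tp: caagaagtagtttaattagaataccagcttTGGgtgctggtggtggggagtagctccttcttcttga
mt-Te: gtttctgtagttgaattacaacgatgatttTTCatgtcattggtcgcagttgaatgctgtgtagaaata
The next pair shows places where 2 coding genes share bases, and capitals mark the shared stretch. The end of mt-Atp8 and the start of mt-Atp6, both ATP synthase subunits, share 43 bases (window chrM:7907-7989, plus strand). The end of mt-Nd4l and the start of mt-Nd4, both complex I subunits, share 7 bases (window chrM:10147-10193, plus strand).
mt-Atp8/mt-Atp6: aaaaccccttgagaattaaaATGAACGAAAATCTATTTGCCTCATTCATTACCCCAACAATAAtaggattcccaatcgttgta
mt-Nd4l/mt-Nd4: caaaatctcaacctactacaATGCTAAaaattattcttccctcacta
The last 5 sequences are the first 60 bases of mt-Nd3, a complex I subunit (chrM:9459-9518, plus strand), of its chromosome 1 copy Gm28438 (chr1:24613060-24613119, minus strand), of mt-Co2, a complex IV subunit (chrM:7013-7072, plus strand), and of the mt-Co2 copies Gm28661 (chr1:24615506-24615565, minus strand) and Gm13341 (chr2:22587903-22587962, minus strand). Capitals mark the base at which Gm28438 differs from mt-Nd3, and the bases at which Gm13341 differs from mt-Co2.
mt-Nd3: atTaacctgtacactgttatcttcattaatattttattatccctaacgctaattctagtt
Gm28438: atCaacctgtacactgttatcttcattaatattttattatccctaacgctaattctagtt
mt-Co2: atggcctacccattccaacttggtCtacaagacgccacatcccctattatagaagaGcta
Gm28661: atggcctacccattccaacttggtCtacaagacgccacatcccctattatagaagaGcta
Gm13341: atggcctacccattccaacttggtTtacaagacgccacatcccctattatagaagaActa
In these windows the chromosome 1 copy of mt-Nd3 differed at 1 base, the chromosome 2 copy of mt-Co2 at 2 bases and the chromosome 1 copy of mt-Co2 at 0 bases.

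Chromosome M genes took the largest share of counts in naive muscle and the smallest in needling muscle. The share was 11.6%, 13.5% and 12.2% of all gene counts in naive replicates 1 to 3, with a mean of 12.4% ± 0.972 (SD, n = 3). It was 8.85%, 10.4% and 10.7% in saline muscle, with a mean of 9.99% ± 0.994 (SD, n = 3). Every saline library lay below every naive library. In injury muscle the share was 11.7%, 8.74% and 9.39%, with a mean of 9.96% ± 1.58 (SD, n = 3). Injury replicate 1 lay within the naive range, so these 2 groups overlapped. In needling muscle the share was 7.31%, 7.12% and 9.37%, with a mean of 7.94% ± 1.25 (SD, n = 3). Every needling library lay below every naive library, while needling replicate 3 lay above saline replicate 1 and injury replicate 2. The mean share in needling muscle differed from that in naive muscle by -4.50 percentage points, and by -5.22 to -3.97 points with any 1 of the 6 libraries left out. No test was made of the share, which sums over the members.

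The coding genes made up nearly all of this share. They took 12.2% ± 0.961 of all counts in naive muscle and 7.78% ± 1.25 in needling muscle (SD, n = 3). The rRNA genes took 0.238% ± 0.0641 in naive and 0.131% ± 0.00768 in needling muscle (SD, n = 3). The low rRNA share describes these libraries, and how rRNA was treated before sequencing is not stated. The tRNA genes took 0.0373% ± 0.000822 in naive and 0.0225% ± 0.00329 in needling muscle (SD, n = 3). Total counts per library ranged from 16385233 to 27155738, so the 95% Wilson interval of each library's share reached at most 0.0142 percentage points to either side, for counting error only. The spread between replicates was far wider than that.

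**Figure D1:**
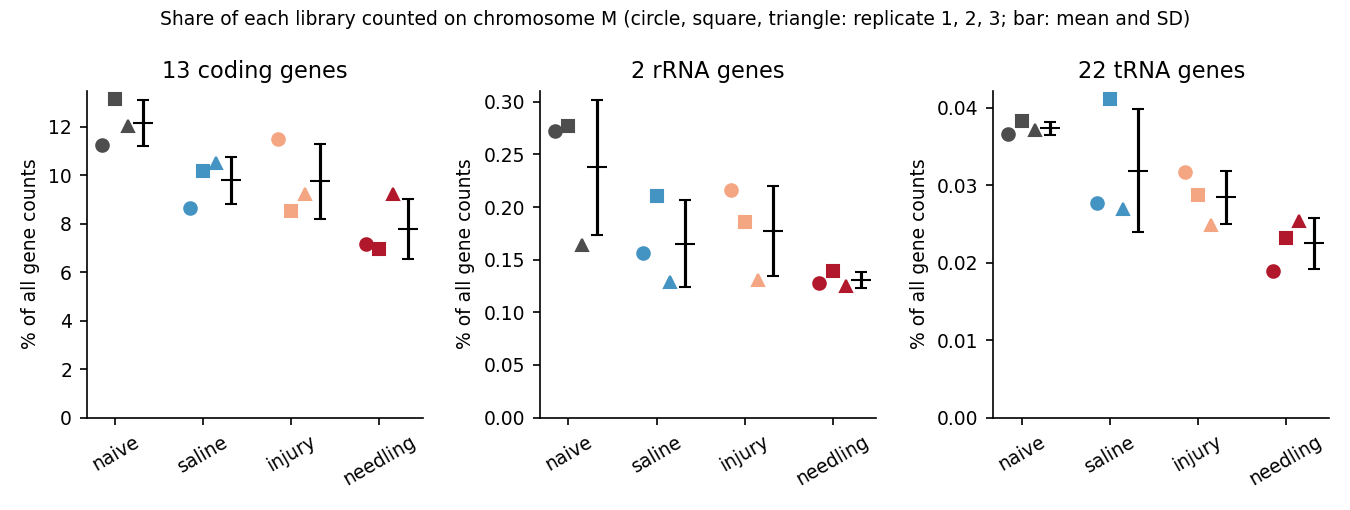
Share of all gene counts on the 13 coding, 2 rRNA and 22 tRNA genes of chromosome M (vertical axes in percent, each from 0) in the 12 libraries by group. Circles, squares and triangles are replicates 1, 2 and 3, and the bar beside them is the mean with its SD. The coding share runs from 11.3% to 13.2% in naive muscle and from 6.96% to 9.22% in needling muscle.

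Per length, the coding genes differed widely from each other in level. Levels per length were taken from the deposited FPKM values (fragments per kilobase, scaled for depth). In naive muscle mt-Co1, the catalytic subunit of complex IV, was highest at 32846 ± 7040 FPKM (SD, n = 3). The complex I subunit mt-Nd1 measured 22866 ± 2711 FPKM, and mt-Cytb, the mitochondrial subunit of complex III, measured 21029 ± 2240 FPKM (SD, n = 3). The ranges of mt-Nd1 and mt-Cytb overlapped, although mt-Nd1 was the higher in each of the 3 naive libraries. The other complex I subunits outside the low genes described next came next, with mt-Nd2 at 14168 ± 1838, mt-Nd4 at 9499 ± 864, mt-Nd5 at 8391 ± 794 and mt-Nd6 at 7082 ± 1031 FPKM (SD, n = 3). The ranges of mt-Nd4 and mt-Nd5 overlapped, as did those of mt-Nd5 and mt-Nd6. The order of these 7 genes was the same in all 4 groups.

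The 6 adjacent coding genes from mt-Co2 to mt-Nd4l stood far below these 7. They were grouped after their values were seen. In naive muscle the level of mt-Co2 was 1117 ± 623 FPKM, of mt-Nd4l 956 ± 107, of mt-Atp6 686 ± 329 and of the complex IV subunit mt-Co3 666 ± 251 (SD, n = 3). The levels of mt-Atp8 and mt-Nd3 were 85.5 ± 26.8 and 47.9 ± 9.57 FPKM (SD, n = 3). The 6 genes together held between 0.654% and 2.64% of the coding counts in each library. The rRNA genes lay in the same range per length, with mt-Rnr1 at 1201 ± 398 and mt-Rnr2 at 1098 ± 376 FPKM in naive muscle (SD, n = 3). From mt-Rnr1 down to mt-Co3 the ranges of neighbours in the order overlapped.

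**Figure D2:**
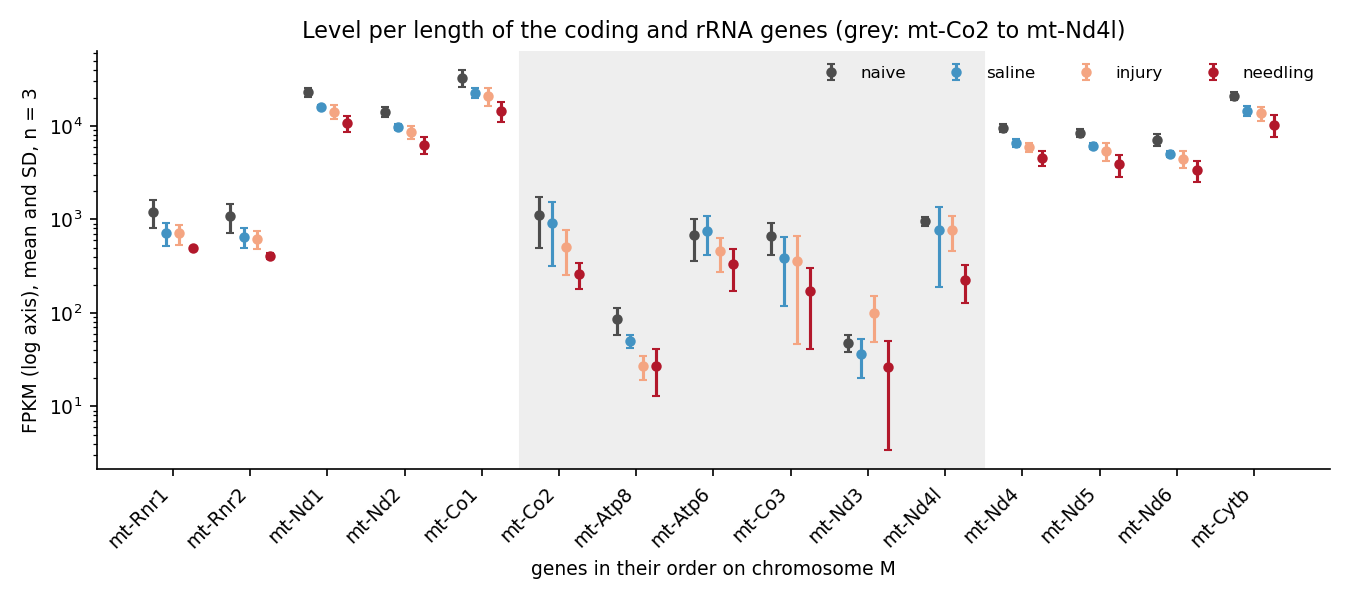
Level per length of the 13 coding and 2 rRNA genes in FPKM (vertical log axis), in their order on chromosome M (horizontal axis), as the mean and SD of 3 libraries per group. The 6 genes on the grey ground, from mt-Co2 to mt-Nd4l, lie below the coding genes on both sides, with naive means between 47.9 and 1117 FPKM against 7082 to 32846 FPKM.

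The same 6 genes were also unsteady between libraries. Each gene's count was set against the summed count of the 7 coding genes outside the run in its library, and each of those 7 genes against the sum of the other 6. Among the 7 genes the highest of the 12 libraries exceeded the lowest by between 1.09-fold for mt-Nd2 and 1.25-fold for mt-Nd4. Among the 6 genes this range was 3.25-fold for mt-Atp8, 4.34-fold for mt-Atp6, 4.41-fold for mt-Co2, 4.98-fold for mt-Co3, 6.50-fold for mt-Nd4l and 9.30-fold for mt-Nd3. Such ranges were not confined to the run. The tRNA genes mt-Th and mt-Ts2, on 32 to 101 and 24 to 89 counts per library, varied 3.76-fold and 3.43-fold. The other tRNA genes so measured varied from 1.51-fold for mt-Tp to 2.57-fold for mt-Ty. For mt-Rnr1 and mt-Rnr2 the range was 2.05-fold and 1.91-fold. Saline replicate 3 had the highest mt-Co2, mt-Atp6 and mt-Nd4l of the 12 libraries on this measure. Injury replicate 2 had the highest mt-Nd3 and the lowest mt-Co3. The 6 genes therefore did not move together in every library.

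**Figure D3:**
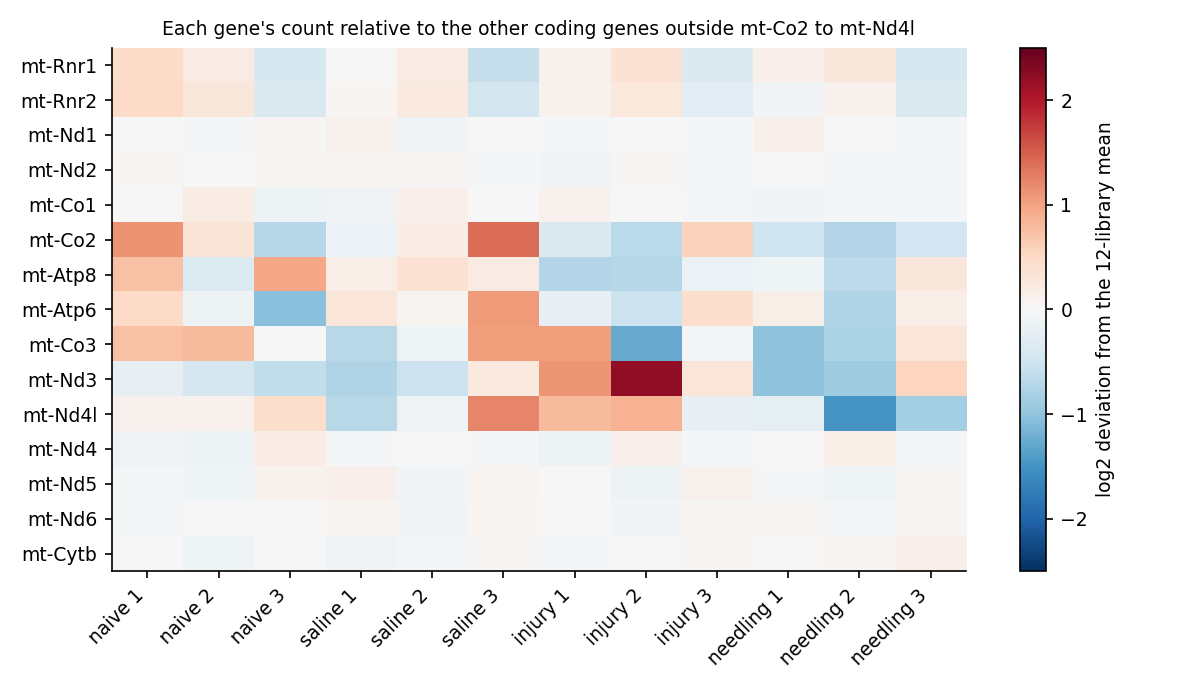
Count of each coding and rRNA gene relative to the summed count of the 7 coding genes outside mt-Co2 to mt-Nd4l (a gene of these 7 being left out of its own sum), as the log2 deviation from the mean of the 12 libraries (colour), with genes in genome order (rows) and libraries by group (columns). The 7 genes vary by at most 1.25-fold across libraries, the 6 genes from mt-Co2 to mt-Nd4l by 3.25-fold to 9.30-fold, and mt-Rnr1 and mt-Rnr2 by 2.05-fold and 1.91-fold.

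Near-identical nuclear copies were looked for among the annotated transcripts, at 95% identity or more over 100 bases or more, and 9 coding genes had one. The 7 copies on chromosome 1 lie between bases 24611535 and 24616197 and follow the order of the mitochondrial genes. Gm28661, Gm10925, Gm28437 and Gm10222 match mt-Co2, mt-Atp6, mt-Co3 and mt-Nd4l at 100% over nearly their whole length, and Gm28438 matches mt-Nd3 at 99.7%. Gm29216 matches the last 483 bases of mt-Co1 at 99.8%, and Gm28439 the first 876 bases of mt-Nd4 at 100%. Less similar copies lie on chromosome 2 (Gm13340 for mt-Co1, Gm13341 for mt-Co2 and Gm13339 for mt-Nd2) and on chromosome 13 (Gm4076 for mt-Nd5). The tRNA genes, of at most 75 bases, are too short for this rule, and none of their 50-base windows occurs exactly in a nuclear transcript. Copies that are not annotated as transcripts were not searched.

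The copies also carried counts. Of the counts on mt-Nd3 and Gm28438 together, the copy held between 54.6% and 91.7% in the 12 libraries. The copy held 13.9% to 49.3% for mt-Co3, 20.4% to 46.2% for mt-Atp6, 10.9% to 31.6% for mt-Co2 and 5.57% to 24.7% for mt-Nd4l. For mt-Nd4 the share was 0.359% to 1.02%, and for mt-Co1 and Gm29216 it was 0.0812% to 0.232%. Of all 100-base windows, between 97.6% and 99.9% of those in mt-Co2, mt-Atp6, mt-Co3, mt-Nd3 and mt-Nd4l occur exactly in a nuclear transcript, compared with 60.8% in mt-Nd4, 30.8% in mt-Co1 and 0% in mt-Nd1, mt-Nd6 and mt-Cytb. The windows of mt-Atp8 had no such match, although the gene lies within the same run and shares bases with mt-Atp6. The copies of its neighbours mt-Atp6 and mt-Co2 end and start at bases 24614651 and 24614885 of chromosome 1. The stretch between these copies was not searched, so a copy of mt-Atp8 there would have been missed. How the authors treated reads that match several places is not stated. The part of the copies in these levels was not tested, and mt-Co2, mt-Nd4l, mt-Atp8, mt-Atp6, mt-Co3 and mt-Nd3 are uncertain throughout. The copies make mt-Co1, mt-Nd2, mt-Nd4 and mt-Nd5 uncertain as well. For mt-Nd2 and mt-Nd5 the copy held at most 0.136% and 0.00464%. These shares do not count reads that were left out for matching several places, so they do not give the extent of the uncertainty.

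Of the 37 genes, 29 passed the filter on low counts and were tested, namely all 13 coding genes, both rRNA genes and 14 tRNA genes. The other 8 tRNA genes had at most 5 counts in any library. No count at all was recorded for mt-Tf, mt-Ts1 and mt-Tg. For counting error alone this allows at most 0.110 to 0.183 CPM (counts scaled to library size) per library. It sets no limit on the true level, since reads that match several places may have been left out. Both mt-Ts1 and mt-Tg lie between coding genes with chromosome 1 copies, and tRNA genes so placed are uncertain too. Tests used edgeR's quasi-likelihood method over all 15715 genes, and a gene was called changed at a Benjamini-Hochberg adjusted p under 0.05, two-sided. CPM below are scaled by TMM, edgeR's trimmed-mean factors. The 6 comparisons share groups and so are not independent of each other. Nor are the members, which come from shared precursors. Counts of members that are called, share a direction or do not overlap are therefore not counts of separate observations. Bulk tissue cannot tell fewer cells of a type from less RNA per cell.

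Needling muscle differed most from naive muscle. Of the 29 genes, 21 were called and all 21 were lower, where 19.0% of all genes tested were called lower and 42.2% were called in either direction. They were 10 coding genes, both rRNA genes and 9 tRNA genes. The median log2 fold change was -1.17 over the 29 genes and -0.03 over all genes tested. These changes rest on TMM scaling. As a share of all counts the fall was smaller, from a mean of 12.4% to 7.94%. Relative to naive replicate 1, needling replicate 1 had a median-ratio size factor of 1.73 but a total count of 1.22. Scaling to total counts was not tested. In 23 of the 29 genes every needling library lay below every naive library, compared with 24.1% of all genes.

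The gene with the highest count was mt-Co1, at 46955, 62717 and 42887 CPM in naive replicates 1 to 3 and 20577, 18418 and 28812 CPM in needling replicates 1 to 3. The groups did not overlap. It fell by 1.17 ± 0.25 on the log2 scale (SE; edgeR adjusted p = 0.00252), from 50853 ± 10474 to 22603 ± 5485 CPM (SD, n = 3). For mt-Cytb the values were 23166, 26819 and 22383 CPM in naive and 10513, 9496 and 15417 CPM in needling muscle. It fell by 1.03 ± 0.22 (SE; edgeR adjusted p = 0.00269). For mt-Nd1 the values were 20747, 24739 and 20341 CPM in naive and 10059, 8362 and 12487 CPM in needling muscle. It fell by 1.09 ± 0.20 (SE; edgeR adjusted p = 0.000942). Needling replicate 3 was the highest needling library for all 3 genes and still lay below every naive library.

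The light-strand gene mt-Nd6, the only coding gene annotated on the minus strand, measured 3402, 4273 and 3381 CPM in naive and 1612, 1375 and 2238 CPM in needling muscle. It fell by 1.08 ± 0.21 (SE; edgeR adjusted p = 0.00109), a log2 change of the same size as that of its plus-strand neighbour mt-Nd5, which fell by 1.11 ± 0.23 (SE; edgeR adjusted p = 0.00177). The ends of mt-Nd5 and mt-Nd6 overlap on opposite strands, and whether counting used the strand is not stated. The whole of mt-Nd6 lies opposite the long plus-strand precursor. Without strand information its counts may include plus-strand RNA, so they need not measure light-strand transcription. For every 100 counts on mt-Nd5 there were between 22.5 and 25.3 on mt-Nd6 in the 12 libraries. The other complex I genes outside the unsteady run, mt-Nd2 and mt-Nd4, fell by 1.17 ± 0.20 and 1.07 ± 0.18 (SE; edgeR adjusted p = 0.000588 and 0.000543). All 7 genes outside the run were called, with log2 changes between -1.17 and -1.03.

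Within the run, 3 of 6 genes were called. mt-Co2 fell by 2.10 ± 0.61, mt-Nd4l by 2.08 ± 0.57 and mt-Atp8 by 1.68 ± 0.37 on the log2 scale (SE; edgeR adjusted p = 0.0203, 0.0154 and 0.00368). All 3 are uncertain for the reasons above. mt-Atp6 measured 648, 533 and 221 CPM in naive and 236, 112 and 329 CPM in needling muscle. The groups overlapped, and its log2 estimate, -1.05 ± 0.52, did not pass (SE; edgeR adjusted p = 0.134). The estimates of mt-Co3 and mt-Nd3 were -1.95 ± 0.82 and -0.86 ± 0.61 (SE; edgeR adjusted p = 0.0871 and 0.296). Of the 6 coding and rRNA genes with no near-identical copy among the annotated transcripts (mt-Nd1, mt-Nd6, mt-Cytb, mt-Atp8, mt-Rnr1 and mt-Rnr2), 6 were called. Of these, mt-Atp8 lies between genes with chromosome 1 copies and may have a copy that is not annotated.

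The rRNA genes were lower in needling muscle by more than 2.4-fold under TMM scaling. mt-Rnr1, the small-subunit rRNA, measured 1332, 1389 and 722 CPM in naive and 486, 476 and 459 CPM in needling muscle. It fell by 1.28 ± 0.26 on the log2 scale, or 2.42-fold (SE; edgeR adjusted p = 0.00188). mt-Rnr2, the large-subunit rRNA, measured 1982, 2155 and 1075 CPM in naive and 614, 618 and 696 CPM in needling muscle. It fell by 1.44 ± 0.26, or 2.70-fold (SE; edgeR adjusted p = 0.000751). Naive replicate 3 was the lowest naive library for both and lay above every needling library.

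Among the tRNAs, mt-Te had the smallest adjusted p of all chromosome M genes. It measured 38.6, 43.9 and 39.6 CPM in naive and 14.9, 12.5 and 20.6 CPM in needling muscle. It fell by 1.35 ± 0.18 on the log2 scale (SE; edgeR adjusted p = 8.6e-05). mt-Tp measured 176, 161 and 176 CPM in naive and 57.2, 69.0 and 101 CPM in needling muscle, and fell by 1.17 ± 0.18 (SE; edgeR adjusted p = 0.000219). The asparagine, cysteine and tyrosine tRNAs mt-Tn, mt-Tc and mt-Ty, which lie side by side on the minus strand, fell by 1.29 ± 0.31, 1.24 ± 0.24 and 1.28 ± 0.31 (SE; edgeR adjusted p = 0.0067, 0.00154 and 0.00543). The leucine tRNAs mt-Tl1 and mt-Tl2 fell by 1.38 ± 0.32 and 1.09 ± 0.27 (SE; edgeR adjusted p = 0.00387 and 0.00731). The tryptophan tRNA mt-Tw and the methionine tRNA mt-Tm fell by 0.88 ± 0.28 and 1.98 ± 0.62 (SE; edgeR adjusted p = 0.0244 and 0.0203), the latter on 2 to 26 counts per library. The 5 other tested tRNAs had lower estimates and did not pass.

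The 14 tRNA genes of the plus strand held 10.5% of all tRNA counts, and the 8 of the minus strand held 89.5%. Each strand had 7 tested genes. On the minus strand, tRNA sequence lies opposite the long plus-strand precursor, and without strand information reads from the 2 strands cannot be told apart. Standard RNA library preparation retains few molecules as short as a tRNA, so these counts need not measure mature tRNA.

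The comparison of needling with saline muscle, which share an injection but differ in bupivacaine and needling, gave 12 called genes of 29, all lower, where 11.0% of all genes tested were called lower and 29.6% in either direction. The median log2 fold change was -0.65 over the 29 genes and -0.04 over all genes tested. Every needling library lay below every saline library for 16 of the 29 genes, compared with 22.1% of all genes. mt-Te measured 27.7, 34.9 and 24.2 CPM in saline muscle and fell by 0.86 ± 0.18 on the log2 scale in needling muscle (SE; edgeR adjusted p = 0.00381). mt-Tp measured 111, 145 and 117 CPM in saline muscle and fell by 0.71 ± 0.18 (SE; edgeR adjusted p = 0.00987). Neither gene's needling values, given above, reached its saline range.

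Among the coding genes, mt-Nd2 measured 9453, 10905 and 10512 CPM in saline and 6137, 5385 and 8205 CPM in needling muscle. It fell by 0.65 ± 0.20 (SE; edgeR adjusted p = 0.0285). mt-Nd1, mt-Nd4, mt-Nd5 and mt-Nd6 fell by 0.58 ± 0.20, 0.55 ± 0.18, 0.66 ± 0.23 and 0.59 ± 0.20 (SE; edgeR adjusted p = 0.0444, 0.0385, 0.0426 and 0.0452). The 5 called genes outside the run were thus all complex I subunits. The estimates of mt-Co1 and mt-Cytb were -0.64 ± 0.25 and -0.52 ± 0.22 and did not pass (SE; edgeR adjusted p = 0.0701 and 0.0992). The sizes overlap with those of the called genes, so no difference between complexes was shown.

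The uncertain genes mt-Co2 and mt-Nd4l fell by 1.83 ± 0.61 and 1.78 ± 0.56 (SE; edgeR adjusted p = 0.0466 and 0.0412), while mt-Atp6 did not pass at -1.20 ± 0.52 (SE; edgeR adjusted p = 0.114). mt-Tn, mt-Tc and mt-Ty fell by 0.98 ± 0.31, 0.90 ± 0.24 and 0.88 ± 0.31 (SE; edgeR adjusted p = 0.0347, 0.0154 and 0.0487). The rRNA estimates were -0.54 ± 0.26 for mt-Rnr1 and -0.70 ± 0.25 for mt-Rnr2, and neither passed (SE; edgeR adjusted p = 0.135 and 0.053). Of the 6 coding and rRNA genes without a near-identical annotated copy, 2 were called, namely mt-Nd1 and mt-Nd6. Most of the 12 calls lay close to the threshold, since leaving out needling replicate 1, needling replicate 2 or saline replicate 2 left 2 calls in each case, and leaving out saline replicate 3 left 5. These 4 fits called between 16.0% and 22.1% of all genes. mt-Te and mt-Tp were called in each of the 6 fits that left out 1 library. The count was 6 with the 2 groups fitted alone, which called 29.7% of all genes, and 21 with limma-voom and quality weights, which called 42.9% of all genes.

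Injury compared with naive muscle gave 9 called genes of 29, all lower, where 5.54% of all genes tested were called lower and 17.8% in either direction. The median log2 fold change was -0.67 over the 29 genes and -0.02 over all genes tested. Every injury library lay below every naive library for 15 genes, compared with 15.9% of all genes. mt-Tp measured 97.6, 88.6 and 103 CPM in injury muscle and fell by 0.83 ± 0.18 on the log2 scale (SE; edgeR adjusted p = 0.00662). mt-Te measured 22.2, 26.7 and 20.6 CPM and fell by 0.81 ± 0.18 (SE; edgeR adjusted p = 0.00805). Both lay below every naive library.

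mt-Nd1 measured 15996, 11436 and 13541 CPM in injury muscle and fell by 0.68 ± 0.20 (SE; edgeR adjusted p = 0.0335). mt-Nd2, mt-Nd4 and mt-Nd6 fell by 0.70 ± 0.20, 0.67 ± 0.18 and 0.67 ± 0.20 (SE; edgeR adjusted p = 0.0291, 0.0238 and 0.0383). mt-Rnr2 fell by 0.82 ± 0.25 (SE; edgeR adjusted p = 0.0415), with overlap between the groups, and mt-Rnr1 had an estimate of -0.76 ± 0.26 (SE; edgeR adjusted p = 0.0591). The tRNA mt-Tl2 fell by 0.93 ± 0.27 and the uncertain mt-Atp8 by 1.67 ± 0.37 (SE; edgeR adjusted p = 0.0364 and 0.0101). The estimates of mt-Co1, mt-Cytb and mt-Atp6 were -0.67 ± 0.25, -0.63 ± 0.22 and -0.59 ± 0.52 (SE; edgeR adjusted p = 0.0817, 0.068 and 0.475). The count of 9 was 2 without naive replicate 2, 4 without naive replicate 1, 3 without injury replicate 3 and 4 without injury replicate 2, where between 8.47% and 15.4% of all genes were called. With DESeq2, which called 19.8% of all genes, it was 15.

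**Figure D4:**
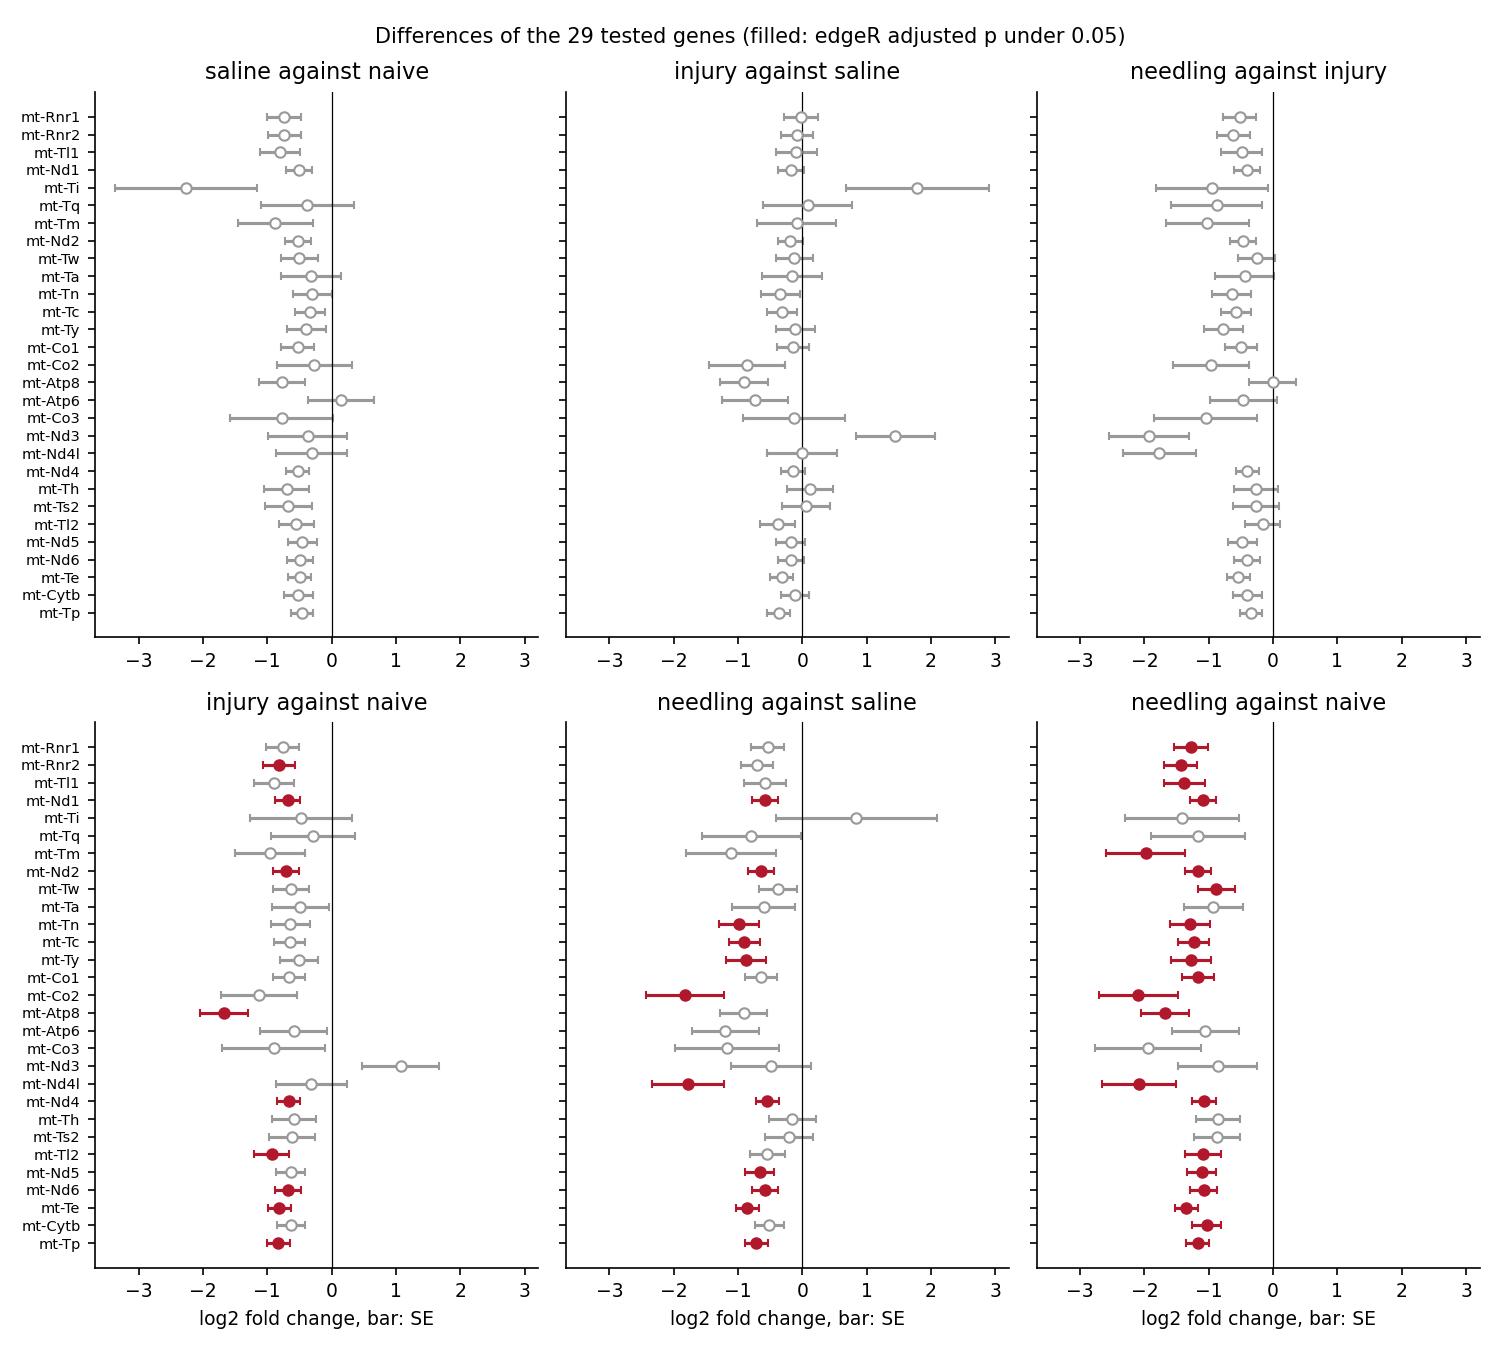
Log2 fold change with its SE (horizontal axes) of the 29 tested chromosome M genes in genome order (vertical axes) in the 6 comparisons. Filled red points passed an edgeR adjusted p under 0.05. The lower panels hold 9, 12 and 21 called genes, all lower, and the upper panels hold 0.

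Saline against naive muscle, which addresses the injection itself, gave 0 called genes by edgeR, as it did among all 15715 genes (0.00%). At an unadjusted p under 0.05 there were 10 of 29, or 34.5%, compared with 11.9% of all genes. The count was 1 (mt-Nd4) by DESeq2, which called 1.10% of all genes, and 0 by limma-voom, which called 0.00%. Estimates were lower in saline muscle for 28 of 29 genes, with a median log2 fold change of -0.51, where all genes tested had 0.02. mt-Co1 measured 30227, 38900 and 36590 CPM in saline muscle, below every naive library, and its log2 estimate was -0.53 ± 0.25 (SE; edgeR adjusted p = 0.43). mt-Cytb, mt-Nd1 and mt-Nd6 had estimates of -0.52 ± 0.22, -0.51 ± 0.20 and -0.50 ± 0.20 (SE; edgeR adjusted p = 0.402, 0.378 and 0.39). mt-Rnr1 and mt-Rnr2 had -0.74 ± 0.26 and -0.73 ± 0.25 (SE; edgeR adjusted p = 0.342 and 0.339), and mt-Atp6 had 0.15 ± 0.52 (SE; edgeR adjusted p = 0.929). The 7 coding genes outside the unsteady run did not overlap between the groups, and 12 of the 29 genes did not, compared with 7.01% of all genes that lay lower throughout.

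Injury against saline muscle, which addresses bupivacaine beyond the injection, also gave 0 called genes by edgeR, by DESeq2 and by limma-voom. At an unadjusted p under 0.05 there were 2 of 29, or 6.90%, below the 15.7% of all genes. Of all genes tested edgeR called 4.26%, and 0.0700% were called lower, while DESeq2 called 5.85% and limma-voom 7.04%. The median log2 fold change of the 29 genes was -0.14, and 2 genes did not overlap, compared with 9.72% of all genes that lay lower throughout. mt-Co1 measured 39454, 25797 and 30778 CPM in injury muscle, around its saline values, and its log2 estimate was -0.14 ± 0.25 (SE; edgeR adjusted p = 0.836). mt-Cytb, mt-Nd1 and mt-Nd6 had estimates of -0.11 ± 0.22, -0.17 ± 0.20 and -0.18 ± 0.20 (SE; edgeR adjusted p = 0.852, 0.722 and 0.723). mt-Rnr1, mt-Rnr2 and mt-Atp6 had -0.02 ± 0.26, -0.09 ± 0.25 and -0.74 ± 0.52 (SE; edgeR adjusted p = 0.981, 0.908 and 0.547). Injury replicate 1 held the highest mt-Co1 of the 3 injury libraries, above all saline libraries.

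Needling against injury muscle, which addresses needling after bupivacaine, gave 0 called genes by edgeR, as among all genes tested (0.00%). At an unadjusted p under 0.05 there were 8 of 29, or 27.6%, compared with 16.6% of all genes. The count was 1 (mt-Nd4l) by DESeq2 and 2 (mt-Nd3 and mt-Ty) by limma-voom, which called 4.46% and 5.80% of all genes. All 29 estimates were lower in needling muscle, with a median log2 fold change of -0.49, where all genes tested had 0.01. In 7 of the 29 genes every needling library lay below every injury library, compared with 7.27% of all genes. mt-Co1, mt-Cytb, mt-Nd1 and mt-Nd6 had estimates of -0.50 ± 0.25, -0.40 ± 0.22, -0.41 ± 0.20 and -0.41 ± 0.20 (SE; edgeR adjusted p = 0.337, 0.387, 0.332 and 0.336). mt-Atp6 had -0.46 ± 0.52, mt-Rnr1 -0.52 ± 0.26 and mt-Rnr2 -0.62 ± 0.25 (SE; edgeR adjusted p = 0.69, 0.339 and 0.243).

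Injury and needling libraries with the same replicate number deviated together, so a fit of these 6 libraries with the number as a block was also read. It called 5 of the 25 chromosome M genes it tested, a share near the 19.6% of all genes called in either direction, so the count does not set these genes apart. All 5 were lower in needling muscle, where 7.16% of all genes were called lower. mt-Rnr1 fell by 0.52 ± 0.13, mt-Rnr2 by 0.62 ± 0.15 and mt-Tn by 0.63 ± 0.14 on the log2 scale (SE; edgeR adjusted p = 0.0217, 0.0239 and 0.0318). The uncertain mt-Co2 and mt-Atp6 fell by 0.91 ± 0.11 and 0.54 ± 0.09 (SE; edgeR adjusted p = 0.00103 and 0.00414). This fit leaves only 2 residual degrees of freedom. In the fit of all 12 libraries without the block their SEs were 0.59 and 0.52, and neither passed (edgeR adjusted p = 0.442 and 0.69). The labels give no origin for this pairing.

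The rRNA genes followed the replicate number in all 4 groups, a pattern picked after its values were seen. Counts on the rRNA genes came to 1.36%, 1.23%, 1.42% and 1.36% of the counts on the coding genes in replicate 3 of naive, saline, injury and needling muscle. In the 4 libraries numbered 1 the same measure lay between 1.78% and 2.42%, and in the 4 numbered 2 between 2.01% and 2.18%. The libraries numbered 3 were thus below the other 8 in every group. Counts on mt-Rnr1 ranged from 62.6 to 79.1 per 100 counts on mt-Rnr2, so both rRNAs took part. The labels name no batch behind the numbers, and its part in the rRNA values was not tested.

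Listed nuclear genes of the same complexes were also lower in needling muscle than in naive and saline muscle. The list of 22 subunits holds only some of these genes. Like the other lists, it was chosen with earlier results of these data known. The counts of nuclear genes called lower stand beside 19.0% of all genes in needling against naive, 11.0% in needling against saline and 5.54% in injury against naive muscle. Of 22 nuclear subunits of complexes I, III, IV and the ATP synthase, 22 were called lower against naive and 19 against saline muscle, and 11 were called lower in injury against naive muscle. Their median log2 fold change was -0.81 against naive muscle, where that of the 13 mitochondrial coding genes was -1.11. Cox7a1, a muscle isoform of a complex IV subunit, fell from 322 ± 26.3 CPM in naive to 145 ± 28.1 CPM in needling muscle (SD, n = 3; log2 change -1.15 ± 0.19 SE; edgeR adjusted p = 0.000385). Cox8b, another complex IV subunit, fell by 0.998 ± 0.158, Atp5c1, a subunit of the ATP synthase, by 0.85 ± 0.14 and Ndufs3, a complex I subunit, by 0.81 ± 0.12 (SE; edgeR adjusted p = 0.000308, 0.000472 and 0.000184). The 4 genes of complex II, which has no mitochondrially encoded subunit, were all called lower against naive muscle, and 1 of them, Sdha, against saline muscle. Sdha, the flavoprotein subunit, fell by 0.91 ± 0.18 against naive muscle (SE; edgeR adjusted p = 0.00123).

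Summed over the list, the 7 coding genes outside the unsteady run had 8.64 ± 0.482 CPM per CPM of the 22 nuclear subunits in naive muscle and 6.97 ± 0.525 in needling muscle (SD, n = 3). The naive libraries lay between 8.12 and 9.06 and the needling libraries between 6.37 and 7.31, so they did not overlap. The saline and injury means were 7.50 ± 0.699 and 7.54 ± 1.03 (SD, n = 3), and both groups overlapped with naive and with needling muscle. No test was made of this ratio.

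Of 17 genes that maintain and transcribe mitochondrial DNA, 7 were called lower and 1 higher against naive muscle, where 42.2% of all genes were called in either direction, a share near that of the list. Against saline muscle 3 were called lower. Twnk, the helicase of mitochondrial DNA replication, fell from 36.6 ± 3.37 to 21.3 ± 1.01 CPM against naive muscle (SD, n = 3; log2 change -0.78 ± 0.10 SE; edgeR adjusted p = 6.45e-05). Tfb2m, a mitochondrial transcription factor, fell by 0.66 ± 0.12, and Tfam, which packages mitochondrial DNA and starts its transcription, by 0.51 ± 0.12 (SE; edgeR adjusted p = 0.000644 and 0.00368). Mgme1, a nuclease of mitochondrial DNA, fell by 0.61 ± 0.12 (SE; edgeR adjusted p = 0.00134). The median log2 fold change of the 17 genes was -0.33 against naive muscle.

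Of 20 genes for processing, stability and decay of mitochondrial RNA, 11 were called lower against naive and 3 against saline muscle. Lrpprc, which stabilises mitochondrial messenger RNAs, fell by 0.66 ± 0.14, and Grsf1, a protein of mitochondrial RNA granules, by 0.70 ± 0.15 against naive muscle (SE; edgeR adjusted p = 0.00253 and 0.00244). Fastk and Fastkd2, of a family of mitochondrial RNA-binding proteins, fell by 0.68 ± 0.10 and 0.61 ± 0.13 (SE; edgeR adjusted p = 0.000131 and 0.00241). Of 10 nuclear regulators of mitochondrial biogenesis, 4 were called lower against naive and 3 against saline muscle. Perm1, a muscle regulator of oxidative metabolism, measured 301 ± 50.9 CPM in naive and 105 ± 35.0 CPM in needling muscle (SD, n = 3) and fell by 1.52 ± 0.24 (SE; edgeR adjusted p = 0.00044). Ppargc1a, a coactivator that drives mitochondrial biogenesis, fell by 0.76 ± 0.16, and its partner Esrra, a nuclear receptor, by 0.81 ± 0.16 (SE; edgeR adjusted p = 0.00178 and 0.00129). Ppard, another nuclear receptor, fell by 0.35 ± 0.13 (SE; edgeR adjusted p = 0.0454).

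Of 16 other proteins of the mitochondrial membranes and matrix, 13 were called lower against naive muscle. Idh3a, a subunit of isocitrate dehydrogenase, fell by 0.92 ± 0.17, and Timm23, a channel for protein import, by 0.79 ± 0.12 (SE; edgeR adjusted p = 0.000902 and 0.000251). Against saline muscle 11 were called lower and Tomm40, the pore of the outer membrane, rose by 0.37 ± 0.10 (SE; edgeR adjusted p = 0.0163). In saline against naive, injury against saline and needling against injury muscle, edgeR called 0 of the 89 genes of these 6 nuclear lists, with 18, 4 and 16 at an unadjusted p under 0.05, beside the 11.9%, 15.7% and 16.6% of all genes given above.

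**Figure D5:**
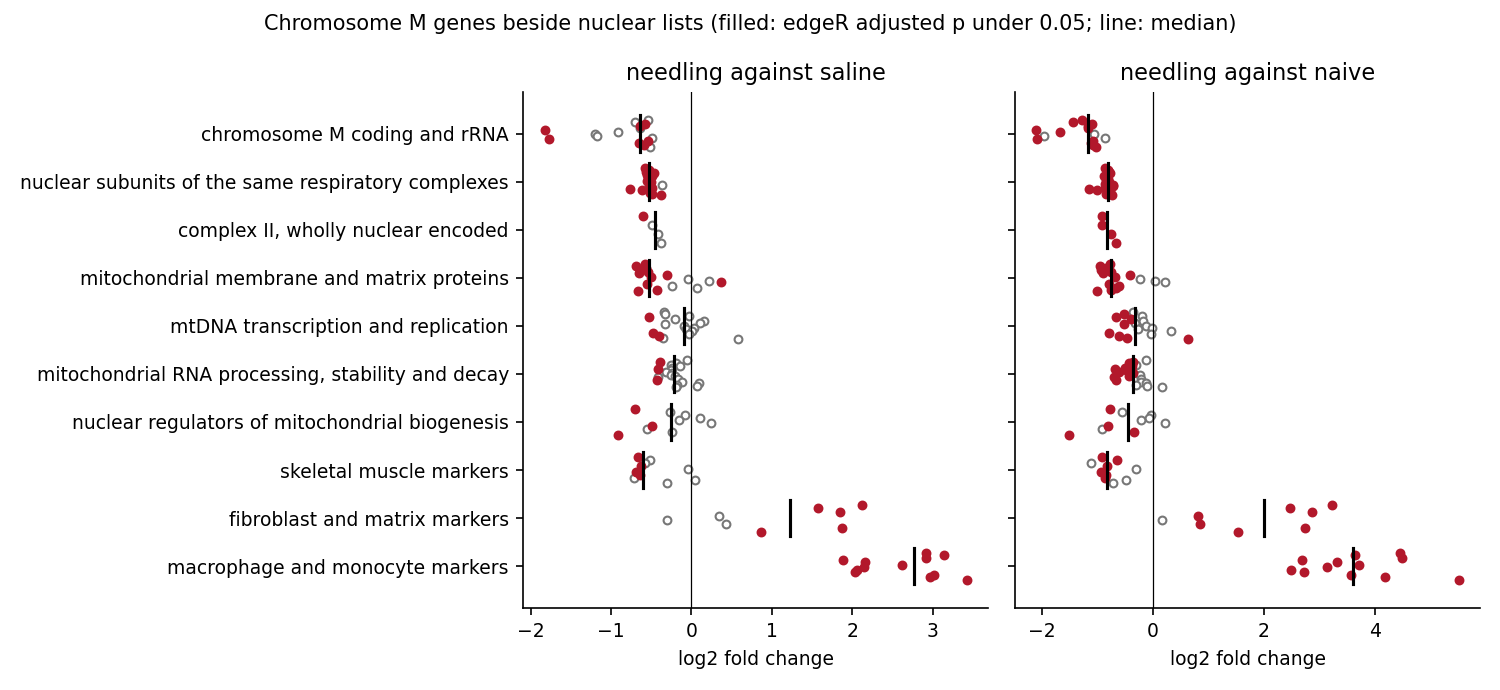
Log2 fold changes (horizontal axes) of the 15 coding and rRNA genes of chromosome M beside lists of nuclear genes, in needling against saline and needling against naive muscle. Each point is a gene, filled where its edgeR adjusted p was under 0.05, and black lines are medians. The median of the 22 nuclear respiratory subunits is -0.81 against naive muscle, and the macrophage markers lie on the opposite side with a median of 3.62.

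Markers of other cell types moved across the same groups. The summed level of 10 skeletal muscle markers was 130544 to 174997 CPM in naive, 127711 to 143771 in saline, 94676 to 122398 in injury and 67209 to 102027 in needling muscle. Against naive muscle 6 of 10 were called lower, with Tnnt3, a fast-fibre troponin, at -0.93 ± 0.20 and Ckm, the muscle creatine kinase, at -0.91 ± 0.22 (SE; edgeR adjusted p = 0.00257 and 0.0057). The summed level of 12 macrophage and monocyte markers was 108 to 213 CPM in naive, 216 to 517 in saline, 885 to 1439 in injury and 2083 to 2895 in needling muscle. In needling against naive muscle 12 of 12 were called higher, where 3641 of all 15715 genes tested were called higher. Adgre1, which encodes the macrophage antigen F4/80, rose by 4.49 ± 0.35 (SE; edgeR adjusted p = 7.93e-06). Of 8 fibroblast and matrix markers 7 were called higher, with summed levels of 967 to 1224 CPM in naive and 3751 to 5112 CPM in needling muscle. The part of these cell types in the mitochondrial values was not tested.

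Set against the summed level of the muscle markers, the 7 coding genes outside the run had 0.946 ± 0.0597 CPM per CPM in naive, 0.760 ± 0.116 in saline, 0.837 ± 0.133 in injury and 0.757 ± 0.0999 in needling muscle (SD, n = 3). The naive libraries lay between 0.884 and 1.003 and the needling libraries between 0.642 and 0.823, without overlap. The saline libraries, between 0.627 and 0.831, also lay below every naive library, so the lower ratio was not particular to needling muscle. The injury libraries, between 0.738 and 0.988, overlapped with naive muscle. Single libraries stood apart in other genes. The summed level of 8 slow-fibre markers was 160 CPM in saline replicate 1 and 479 CPM in needling replicate 1, where the other 10 libraries lay at 1117 CPM or above. Without saline replicate 1, 9 chromosome M genes were called lower in needling against saline muscle, where 21.5% of all genes were called in either direction. The summed level of 7 heat shock chaperones reached 16487 CPM in naive replicate 1 and stayed at or below 2982 CPM elsewhere. Without naive replicate 1, 19 chromosome M genes were called lower in needling against naive muscle, and without needling replicate 1 the count was 18. The 6 fits that left out 1 library each called between 18 and 22, and between 31.4% and 40.2% of all genes.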

How the data were processed

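The authors deposited whole-number counts for each gene and sample, and FPKM values for the same genes. Reads were aligned with HISAT2 2.0.5 to mm10, per the submitters' processing notes, and libraries were made from total RNA with a NEBNext Ultra kit, per the labels' protocols. The sources used here give no counting tool, use of strand or read length. Between libraries, the scale of the deposited FPKM relative to the counts equalled the median-ratio size factors for 10189 genes compared. The gene lengths used in the FPKM cancel out of this check and were not checked. GENCODE M21 gave symbols for 54495 of 54532 identifiers, and all 37 chromosome M genes matched. Counts were tested with edgeR 4.0.16 in R 4.3.3 (quasi-likelihood, robust, TMM, filter on low counts by group, 12 libraries in 1 fit, 15715 genes). Steps were tested on simulated data. Nuclear copies were searched with blastn 2.17.0 among annotated transcripts.

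Alternatives were DESeq2 1.42.0, limma 3.58.1 (log2 FPKM with 1 or 0.1 added, and voom with quality weights), other scalings, including one from nuclear genes alone, other filters, a replicate block, 2 groups alone and leaving out each library. None of them scaled to total counts. Injury and needling libraries of the same number correlated at 0.238, 0.485 and 0.422 in their deviations, above 0.1 in every pair, and no other 2 groups did so. Members and the 15 gene lists were chosen with earlier results of these data known. Fold changes were given for mt-Co1, mt-Cytb, mt-Atp6, mt-Nd1, mt-Nd6, mt-Rnr1, mt-Rnr2 and any other member past the threshold, and from nuclear lists for up to 4 genes with the smallest adjusted p, of which the text names some. In lists not described above, against naive muscle, 2 of 6 endothelial markers and 2 of 7 heat shock chaperones were called lower, 1 of 3 tested neutrophil markers higher, and 0 of 8 slow-fibre, 0 of 5 tested red blood cell and 0 of 5 tested adipocyte markers in either direction, by edgeR. At an unadjusted p under 0.05 these counts were the same, except for 3 heat shock chaperones. Of all 15715 genes tested edgeR called 2985 lower and 3641 higher there, and 49.9% had an unadjusted p under 0.05.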

Additional observations from a re-analysis of the deposited data

How the results depend on the processing

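The direction of every call was kept under each alternative run. Of the log2 fold changes of named genes under alternatives, 1073 kept direction and side of the threshold, 133 no longer passed, 25 newly passed and 9 changed sign. All 60 alternative values of the share differences moved by less than the spread between replicates. This count does not measure robustness, because leaving out 1 of 3 libraries cannot move a difference of means that far. The mean of differences within replicate numbers equals the main value by construction. The other alternatives drop only small parts of the share. Leaving out 1 library nonetheless changed the sign of the small difference in share between injury and saline muscle, which was -0.03 percentage points and ran from -0.92 without injury replicate 1 to 0.58 without injury replicate 2. The difference of needling from injury muscle was -2.02 points and -1.13 without injury replicate 1. The number of chromosome M genes called moved by over 1.5 times under some alternatives, given here beside others that are marked as within 1.5 times. DESeq2 called 1 in saline against naive, 1 in needling against injury and 15 in injury against naive muscle, where edgeR called 0, 0 and 9. limma-voom called 2 in needling against injury and 21 in needling against saline muscle, where edgeR called 0 and 12. The 2 groups alone gave 6 in needling against saline and, within 1.5 times, 6 in injury against naive muscle, where these fits called 29.7% and 11.8% of all genes. The replicate block with 2 groups alone gave 5 in needling against injury, 5 in injury against naive and 12 in needling against naive muscle, where 0, 9 and 21 were called without it. Those fits called 7.62% of all genes in injury against naive and 25.8% in needling against naive muscle. The replicate block over 12 libraries gave, within 1.5 times, 0, 11 and 23 there and 10 in needling against saline muscle, where it called 0.00%, 19.1%, 44.7% and 32.2% of all genes. Leaving out 1 library gave 2 to 13 in needling against saline, 2 to 8 in injury against naive and, within 1.5 times, 18 to 22 in needling against naive muscle. In the same order, these fits called 16.0% to 29.2%, 8.47% to 15.8% and 31.4% to 40.2% of all genes. The signs that changed belonged to estimates that did not pass. Leaving out 1 library gave -0.27 to 0.48 for mt-Atp6 in saline against naive muscle (-0.18 at the other change of sign), and in injury against saline muscle -0.23 to 0.016 for mt-Cytb, -0.20 to 0.24 for mt-Rnr1 and -0.27 to 0.16 for mt-Rnr2. limma-voom gave 0.17 and 0.080 for mt-Rnr1 and mt-Rnr2 there. The cause of these moves was not tested, beyond the smaller number of libraries where 1 was left out. Genes with under 30 counts in every library, such as mt-Ti, mt-Tq, mt-Tm and mt-Ta, are limited by depth.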
